A study of Mus musculus with 42 samples.

Results

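The Hoxb cluster holds 10 mouse Hox genes, Hoxb13, Hoxb9, Hoxb8, Hoxb7, Hoxb6, Hoxb5, Hoxb4, Hoxb3, Hoxb2 and Hoxb1, in this order on the plus strand of chromosome 11. Binding was taken as the ChIP-seq peaks within chr11:96184316-96378256 of mm10 (GRCm38), which is the span of the 10 genes with 10 kb added at either end. The 30 immunoprecipitated libraries held 2450 peaks there in their full lists and 623 among the 20000 best peaks of each list. Overlapping peaks of a factor were merged into regions, and 95 of the 60673 regions tested across the genome lay in the interval. SOX2 had 46 of them, β-catenin 36 and LEF1 13. Regions of different factors that overlapped were counted together, which gave 53 sites.

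The cells were HM1 (129) mouse ES cells differentiated in culture and collected at 72 h. All groups received 10 ng/ml bFGF and 5 µM LGK974, an inhibitor of WNT secretion. The CHIR groups received CHIR99021, a GSK3 inhibitor that switches on WNT/β-catenin signalling, from day 2 to day 3, and the noCHIR group did not. The study names cells given CHIR in this way caudal epiblast-like cells, and those kept without it epiblast-like cells. Each of the 3 factors was precipitated from wild-type cells (WT), from cells lacking Cdx1, Cdx2 and Cdx4 (CdxKO, Cdx1/2/4-/-) and from cells lacking T, also called Brachyury (T/BraKO, T/Bra-/-), all with CHIR. SOX2 was also precipitated from WT cells without CHIR. There were 3 biological replicates in each of the 10 groups, and a genotype cannot be told apart from the cell line that carries it. Each peak was given the rank it had in its own library's list, rank 1 being the peak with the smallest q-value. A peak's rank score was log2((20000 + 1)/rank), and it was 0 below the 20000 best.

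Hox genes encode homeodomain transcription factors that give cells a position along the head-to-tail axis. Genes at the Hoxb1 end of the cluster are switched on first and reach furthest towards the head, whereas those at the Hoxb9 and Hoxb13 end act in the trunk and tail. WNT signalling starts this activation in the posterior epiblast. β-catenin is the WNT effector that joins the DNA-binding TCF/LEF proteins, LEF1 among them, and CDX proteins are homeodomain factors that activate the trunk Hox genes. SOX2 is a factor of pluripotent and neural progenitor cells, and T is a T-box factor of the primitive streak.

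The sequences around the summits at 6 sites are printed because the comparisons turned on them. Each runs 100 bases to either side of the summit, is read from GRCm38 on the plus strand, and carries in capitals the words that were searched on both strands. These were the CDX words CCATAAA or CAATAAA or TCATAAA or TAATAAA, the TCF/LEF words CTTTGAA and CTTTGAT, the SOX words CCATTGT and CCTTTGT, and the T-box word AGGTGTGA. The last of the sequences also prompted a search for a composite SOX-OCT word (CTTTGT, any base, ATGNNAAT) and a HOX-PBX word, TGATNNAT, both chosen after it had been read. The first sequence, chr11:96316392-96316592, is intergenic, with its β-catenin summit 673 bp upstream of the microRNA gene Mir10a and 1775 bp upstream of Hoxb4. The second, chr11:96319316-96319516, lies in the intron of Hoxb4. The third, chr11:96272001-96272201, begins with 58 bases of a coding exon of Hoxb9 and continues into its intron. The fourth, chr11:96283565-96283765, lies in an intron of Hoxb8. The fifth, chr11:96370472-96370672, is intergenic, downstream of Hoxb1. The sixth, chr11:96365469-96365669, is centred on the SOX2 summit 183 bp before the start of Hoxb1.
Mir10a-upstream site: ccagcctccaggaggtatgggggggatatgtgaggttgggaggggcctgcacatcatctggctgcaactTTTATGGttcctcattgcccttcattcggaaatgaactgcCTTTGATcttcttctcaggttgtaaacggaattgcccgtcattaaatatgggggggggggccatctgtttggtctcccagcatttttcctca
Hoxb4 intron site: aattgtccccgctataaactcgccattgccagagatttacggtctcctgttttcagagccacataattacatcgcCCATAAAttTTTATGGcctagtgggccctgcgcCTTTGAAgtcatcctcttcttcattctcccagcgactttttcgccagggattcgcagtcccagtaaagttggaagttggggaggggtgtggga
Hoxb9 intron site: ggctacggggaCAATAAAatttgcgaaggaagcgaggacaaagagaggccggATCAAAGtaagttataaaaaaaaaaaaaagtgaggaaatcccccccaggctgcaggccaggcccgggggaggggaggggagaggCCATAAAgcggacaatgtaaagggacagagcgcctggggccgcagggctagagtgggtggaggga
Hoxb8 intron site: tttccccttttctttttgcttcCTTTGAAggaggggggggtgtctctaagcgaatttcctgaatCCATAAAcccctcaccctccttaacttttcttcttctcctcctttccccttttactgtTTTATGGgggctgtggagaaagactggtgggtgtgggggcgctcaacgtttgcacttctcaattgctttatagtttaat
Hoxb1 downstream site: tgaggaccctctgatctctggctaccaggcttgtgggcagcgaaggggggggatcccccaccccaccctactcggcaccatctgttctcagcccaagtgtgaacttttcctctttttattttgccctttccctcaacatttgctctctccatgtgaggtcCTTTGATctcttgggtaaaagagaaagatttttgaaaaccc
Hoxb1 promoter site: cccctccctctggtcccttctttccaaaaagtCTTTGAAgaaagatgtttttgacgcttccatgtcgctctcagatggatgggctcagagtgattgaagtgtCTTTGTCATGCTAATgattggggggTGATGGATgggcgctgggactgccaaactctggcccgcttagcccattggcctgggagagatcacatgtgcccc

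The first 4 of these windows each held a CDX word and a TCF/LEF word. At the Mir10a-upstream site CCATAAA stood on the minus strand, starting 31 bases before the β-catenin summit, and CTTTGAT on the plus strand 9 bases after it. The Hoxb4 intron site held CCATAAA on either strand, at positions 76 and 85 of the window, and CTTTGAA at position 109. The Hoxb9 intron site held CAATAAA within the coding exon, at position 12, and CCATAAA at position 137 in the intron. Its TCF/LEF word, at position 53, ran across the end of the exon, so that a match there also holds coding and splice sequence. The Hoxb8 intron site held CCATAAA at positions 65 and 123 and CTTTGAA at position 23. The window downstream of Hoxb1 held CTTTGAT alone, and the Hoxb1 promoter window held CTTTGAA, the SOX-OCT word and the HOX-PBX word. An autoregulatory enhancer with HOX-PBX and SOX-OCT sites has been described upstream of Hoxb1, and the window was not matched to it here. No word overlapped another in these 6 windows.

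The peak lists differed strongly in length, from 26940 peaks in a T/BraKO SOX2 library to 1008922 in a WT SOX2 library. Ranks were compared for this reason. The peak at rank 20000 of a list had a fold enrichment over the local background of 4.40 to 9.75. The Hoxb interval held 34 to 143 peaks of a full list and these covered 6.03 to 38.1 kb. When the genome was tiled in windows as long as this interval, no other window held a higher mean number of the 20000 best peaks for SOX2 (24.2 per library) or β-catenin (28.6). For LEF1 the mean was 8.44 and 1 window held more. The median tested window held 1.92, 1.94 and 1.67 peaks for SOX2, β-catenin and LEF1. Some LEF1 libraries stood apart at Hoxb sites, WT replicate 2 at the Mir10a-upstream site and T/BraKO replicates 1 and 3 at the Hoxb1 promoter site, and their values are given with the LEF1 results.

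In WT cells with CHIR, β-catenin was found at 18 of the 53 sites in at least 2 of 3 libraries, SOX2 at 13 and LEF1 at 5. All 3 factors met this at 4 sites, which were the Mir10a-upstream site, the Hoxb4 intron site, a site upstream of Hoxb2 and the Hoxb1 promoter site. A further 7 sites met it for 2 factors, at Hoxb9, Hoxb8 and downstream of Hoxb1, another 10 for 1 factor and 32 for none. Sites that did not meet it could still hold weaker peaks in the full lists. At the Mir10a-upstream site the median summits of β-catenin, SOX2 and LEF1 were at 96316512, 96316509 and 96316522. The summits of each factor there spread over 72 bp in 7 libraries, 136 bp in 5 and 166 bp in 5. At the Hoxb1 promoter site the spread was 36 bp over 9 β-catenin libraries, 85 bp over 12 SOX2 libraries and 31 bp over 7 LEF1 libraries. The peaks of the 3 factors at these 2 sites therefore lay over the same short stretch of DNA.

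β-catenin binding across the cluster differed most between CdxKO cells and the other groups. In CdxKO cells 4 of 36 regions were lower than in WT and none was higher, against 0.629% of all 22559 β-catenin regions lower. These 4 regions lay upstream of Mir10a and Hoxb4 and in introns of Hoxb4, Hoxb9 and Hoxb8. The same 4 of 4 were lower in CdxKO than in T/BraKO cells, in which they did not pass the test against WT. The median difference over the 36 regions was -0.0119, beside 0 over all regions. The 2 comparisons share the CdxKO libraries.

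**Figure D1:**
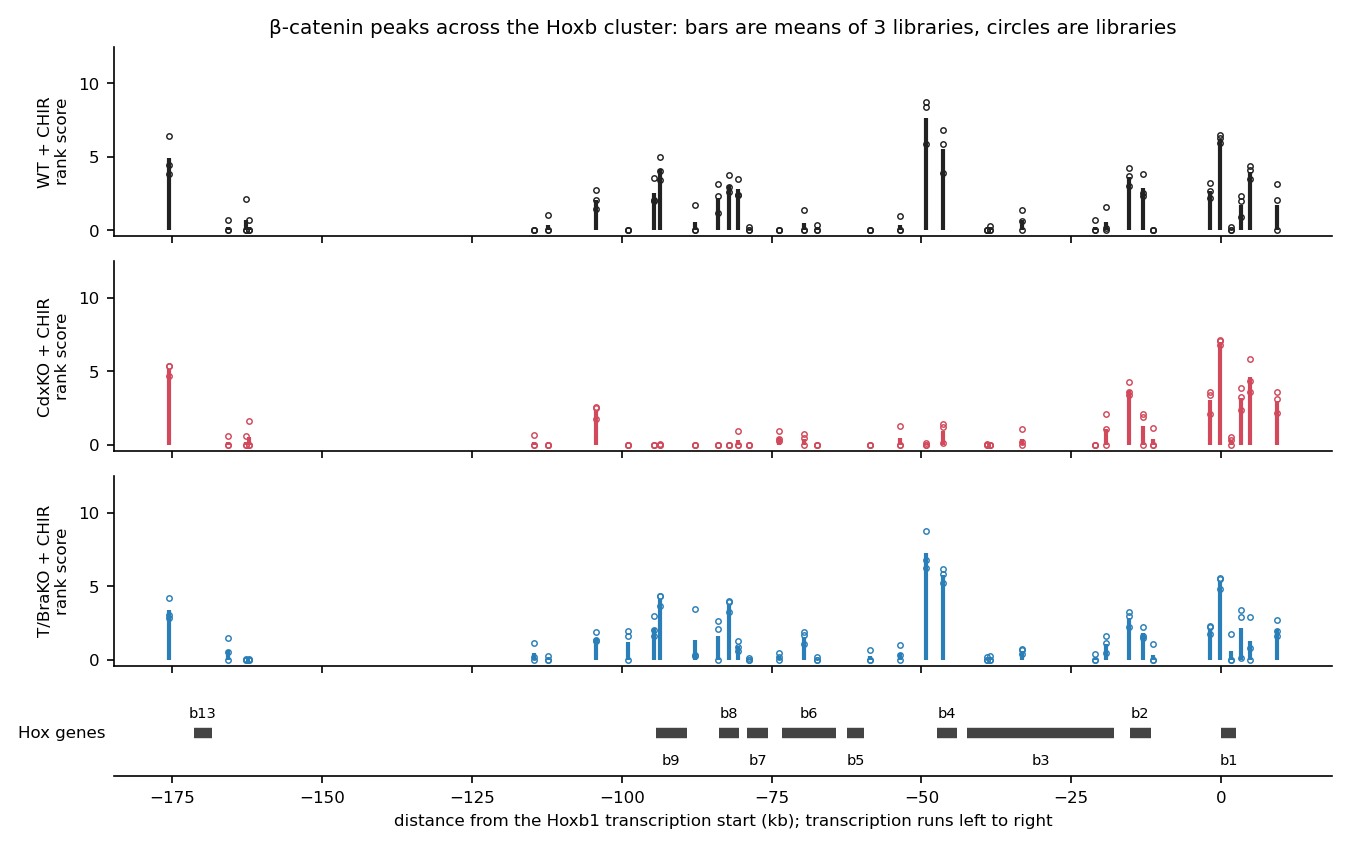
β-catenin rank score at each of the 36 Hoxb regions (vertical axis, 0 is outside the 20000 best peaks) against distance from the Hoxb1 transcription start in kb, for WT, CdxKO and T/BraKO cells with CHIR, with bars for the mean of 3 libraries, circles for single libraries and the 10 genes drawn below. The bars over Hoxb9, Hoxb8 and Hoxb4 that reach 3.08 to 7.64 in WT fall to 0.919 or less in CdxKO, whereas the bar at the Hoxb1 promoter is 6.21 in WT and no lower in CdxKO.

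Hoxb4 acts in the hindbrain and neck and in blood stem cells, and its neighbour Mir10a encodes a microRNA that lies within the Hox cluster. The Mir10a-upstream region, chr11:96315639-96317331, was peak 48, 344 and 61 of the 3 WT β-catenin libraries. In T/BraKO libraries it was peak 184, 262 and 47. CdxKO replicates 1 and 2 had no peak there, and replicate 3 had peak 18350. It was thus among the 344 best peaks of all 6 WT and T/BraKO libraries, and the CdxKO libraries did not overlap them. Fold enrichment was 82.6, 42.7 and 96.0 in WT and 64.2, 43.5 and 81.1 in T/BraKO, and 5.36 in the CdxKO library that had a peak. The rank score was 7.64 ± 1.55 in WT and 0.0414 ± 0.0718 in CdxKO (SD, n = 3 libraries each). The difference was -7.60 (SE 0.618, limma, adjusted p = 1.22e-30 over all regions). Here limma took the spread of β-catenin regions from all regions of like mean score, which makes such values small, and with each region's own variance weighed in and no trend the adjusted p was 0.00738. In CdxKO against T/BraKO the difference was -7.21 (adjusted p = 4.83e-28).

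The Hoxb4 intron region, chr11:96317418-96320513, spans most of the gene with its summit in the intron. It was peak 175, 1332 and 348 in WT and 537, 352 and 273 in T/BraKO. In CdxKO it was peak 8766, 17879 and 7557, a peak in every library, but below each WT and T/BraKO library. The best summits of the 9 libraries spread over 2084 bp, from 96318014 to 96320098, so they need not mark 1 peak in the intron. The call for CdxKO against WT also passed with regions built from summit windows. Fold enrichment was 52.2, 17.0 and 51.1 in WT against 6.45, 5.16 and 7.31 in CdxKO. The difference in rank score was -4.61 (SE 0.651, limma, adjusted p = 1.55e-09), and 0.0246 was the adjusted p without a trend.

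Hoxb9 patterns the thoracic skeleton. Its intron region, chr11:96271580-96273287, was peak 640, 1850 and 1216 in WT and 1570, 971 and 1006 in T/BraKO. In CdxKO it was peak 48260, 19144 and 107075, so that 1 of 3 libraries had it among the 20000 best. The difference from WT was -4.13 (SE 0.733, limma, adjusted p = 1.27e-05). Just before the Hoxb9 start, the β-catenin region with its summit 399 bp upstream was peak 4936, 5099 and 1692 in WT, and 59878, 29495 and 27034 in CdxKO. It was thus in the 20000 best of 3 of 3 WT and 3 of 3 T/BraKO libraries and of 0 of 3 CdxKO libraries, and its difference of -2.52 did not pass the test (adjusted p = 0.209).

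Hoxb8, a trunk gene with roles in the spinal cord, had 3 β-catenin regions. The intron region, chr11:96283252-96284266, was peak 1485, 2662 and 3348 in WT and 1320, 2135 and 1239 in T/BraKO. In CdxKO no peak was found in replicates 1 and 2, and replicate 3 had peak 61802. The groups did not overlap, and the difference was -3.08 (SE 0.780, limma, adjusted p = 0.0170), which was lost with no filter on regions (adjusted p = 0.116), with the 10000 best peaks (adjusted p = 0.145), and without WT replicate 1 or CdxKO replicate 1. The region 159 bp before the Hoxb8 start was peak 2246, 3972 and 8923 in WT, and no CdxKO library had a peak there at any rank. The region over the 3′ end of Hoxb8 was peak 3737, 3727 and 1798 in WT, and only CdxKO replicate 1 had a peak, at rank 10465. Neither passed the test (adjusted p = 0.361 and 0.225). Counted by gene, Hoxb8 had 4 ± 1 β-catenin peaks per WT library, 0.667 ± 0.577 per CdxKO library and 3 ± 1 per T/BraKO library (SD, n = 3), and the WT and CdxKO counts did not overlap.

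All WT libraries exceeded all CdxKO libraries at 8 of 36 Hoxb regions, against 4.32% of all β-catenin regions. Besides the 4 regions that passed the test, these were the Hoxb9 and Hoxb8 regions just described and a region over Hoxb2. They lay at Hoxb9, Hoxb8, Hoxb4 and Hoxb2, and none at Hoxb1 or Hoxb13. All CdxKO libraries exceeded all WT libraries at 3 of 36, against 3.81% of all regions. These were the Hoxb1 promoter, a region downstream of Hoxb1 with a difference of 1.46 (limma, adjusted p = 0.659) and a region between Hoxb7 and Hoxb6. All T/BraKO libraries lay below all WT libraries at 4 of 36, against 4.97%, and above them at 0 of 36, against 7.42%. The 4 included the 3′ region of Hoxb8 and the region over Hoxb2, which also separated WT from CdxKO, and the other 2 lay at Hoxb1. CdxKO lay below T/BraKO without overlap at 7 of 36, against 9.83%, and above at 4 of 36, against 6.80%.

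**Figure D2:**
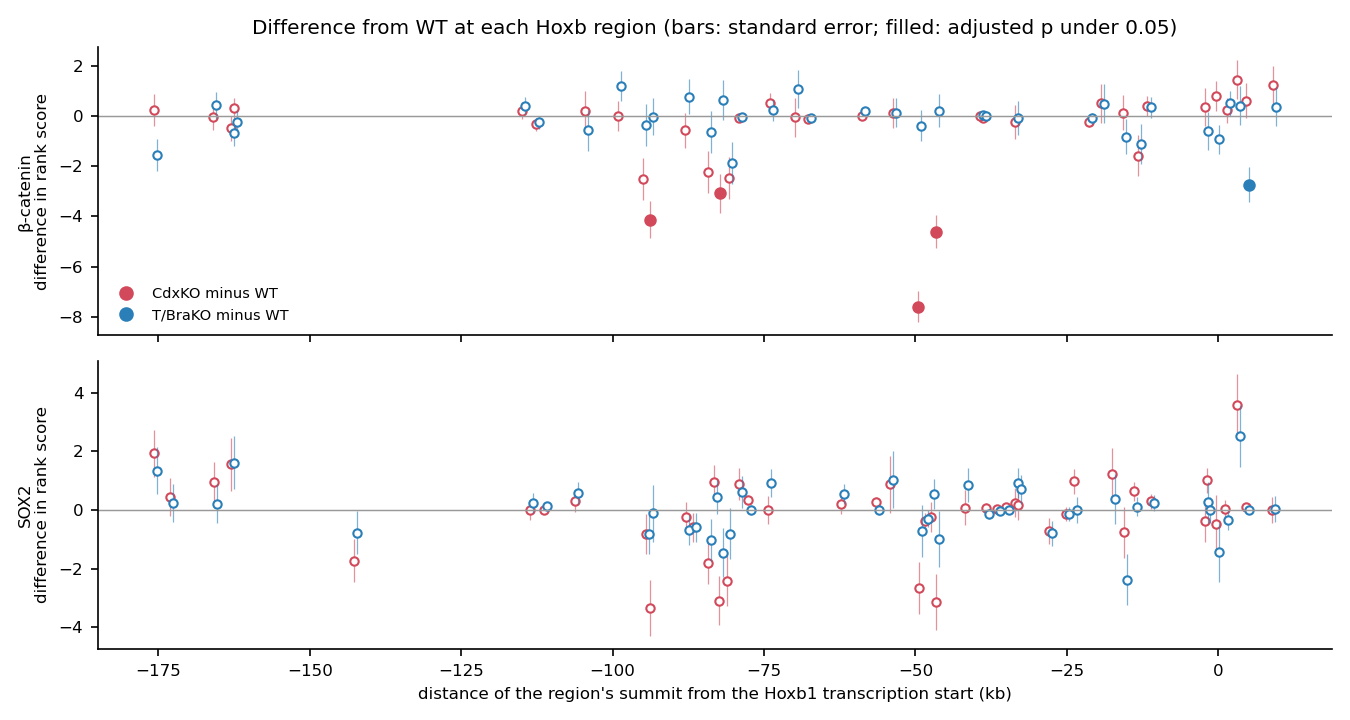
Difference in rank score from WT (CdxKO and T/BraKO minus WT, vertical axis, log2 scale) at each Hoxb region of β-catenin and of SOX2, against the distance of its summit from the Hoxb1 start in kb, with bars for the standard error and filled points for an adjusted p under 0.05. The filled CdxKO points for β-catenin run from -3.08 at Hoxb8 to -7.60 upstream of Mir10a, the filled T/BraKO point is -2.74 downstream of Hoxb1, and no SOX2 point is filled.

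At the Hoxb1 end β-catenin binding was found in every group. Hoxb1, which marks the fourth rhombomere of the hindbrain, had its strongest β-catenin region at the promoter, chr11:96364826-96366211. This was peak 229, 264 and 329 in WT, 144, 146 and 182 in CdxKO and 449, 710 and 433 in T/BraKO. The 3 groups did not overlap, CdxKO being the highest and T/BraKO the lowest. The differences were 0.79 for CdxKO minus WT (adjusted p = 0.724), -0.93 for T/BraKO minus WT (adjusted p = 0.493) and 1.72 for CdxKO minus T/BraKO (SE 0.590, adjusted p = 0.0636), none past the threshold.

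The Hoxb1 downstream region, chr11:96370116-96370880, with its summit 4820 bp after the Hoxb1 start, was lower in T/BraKO cells. It was peak 1800, 1161 and 963 in WT and 978, 1640 and 346 in CdxKO. In T/BraKO it was peak 11352, 22034 and 2616, below each library of the other groups. The difference from WT was -2.74 (SE 0.693, limma, adjusted p = 0.00461), and CdxKO minus T/BraKO was 3.35 (SE 0.693, adjusted p = 7.24e-05, and 0.0753 with no filter on regions). This was the 1 of 36 Hoxb regions lower in T/BraKO than in WT, against 2.38% of all β-catenin regions, and 1 of 36 is near that share. Against T/BraKO, 4 regions were lower in CdxKO, with 2.00% of all regions lower, and 1 was higher, with 3.12% higher. The T/BraKO to WT difference did not pass with no filter (adjusted p = 0.423), without a trend (adjusted p = 0.149) or on fold enrichment (adjusted p = 0.0871), nor without WT replicate 3 or T/BraKO replicate 2.

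At the highest regions of Hoxb2 and Hoxb13, CdxKO and WT overlapped and each CdxKO library stood above each T/BraKO library. Hoxb2, a hindbrain gene that Hoxb1 activates, had its highest region upstream of its start in an intron of the antisense gene Hoxb3os, at peak 1544, 1083 and 2551 in WT, 1684, 1017 and 1874 in CdxKO and 2128, 2609 and 4212 in T/BraKO. The difference was 0.14 between CdxKO and WT (adjusted p = 1.00) and 0.96 between CdxKO and T/BraKO (adjusted p = 0.474). Hoxb13, the tail-end gene that lies apart from the rest of the cluster, had a region with its summit 4023 bp upstream. It was peak 937, 234 and 1397 in WT, 484, 484 and 770 in CdxKO and 2435, 2841 and 1084 in T/BraKO. CdxKO minus T/BraKO was 1.79 (SE 0.635, limma, adjusted p = 0.0797), which passed without T/BraKO replicate 3, and no other difference there passed. Between Hoxb13 and Hoxb9, an intronic region of the non-coding gene Gm53 was peak 7426, 2992 and 4774 in WT and 3554, 5944 and 3319 in CdxKO, so that the groups overlapped.

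The 4 genes between these parts carried weaker peaks. Hoxb3, a hindbrain gene, had its highest WT β-catenin region in an intron at peak 7722, 40884 and 13190. Hoxb6, a trunk gene, had an intronic region at peak 7819 and 22600 in WT replicates 1 and 3, with none in replicate 2, and at 5526, 9339 and 6278 in T/BraKO. Hoxb7, a trunk gene, had a coding-exon region in the 20000 best of WT replicate 2 alone, at peak 17211. A region 5316 bp after the Hoxb7 start was assigned to Hoxb7 by its coding span. Its summit lay beyond the end of Hoxb7 and 537 bp before the Hoxb6 start. The region had peaks 17011, 15355 and 10503 in CdxKO, and was in the 20000 best of 3 of 3 CdxKO and 0 of 3 WT libraries. Hoxb5, a gene of the gut nervous system, had a region at peak 19847 of WT replicate 1. The best WT rank in a tested β-catenin region of these 4 genes was 6825, at Hoxb3. WT replicate 3 also had a peak at rank 4671 assigned to Hoxb7, in no tested region of these genes. In T/BraKO a region between Hoxb9 and Hoxb8 was in the 20000 best of 3 of 3 libraries, at peak 17171, 15807 and 1795, and no CdxKO library had a peak there.

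**Figure D3:**
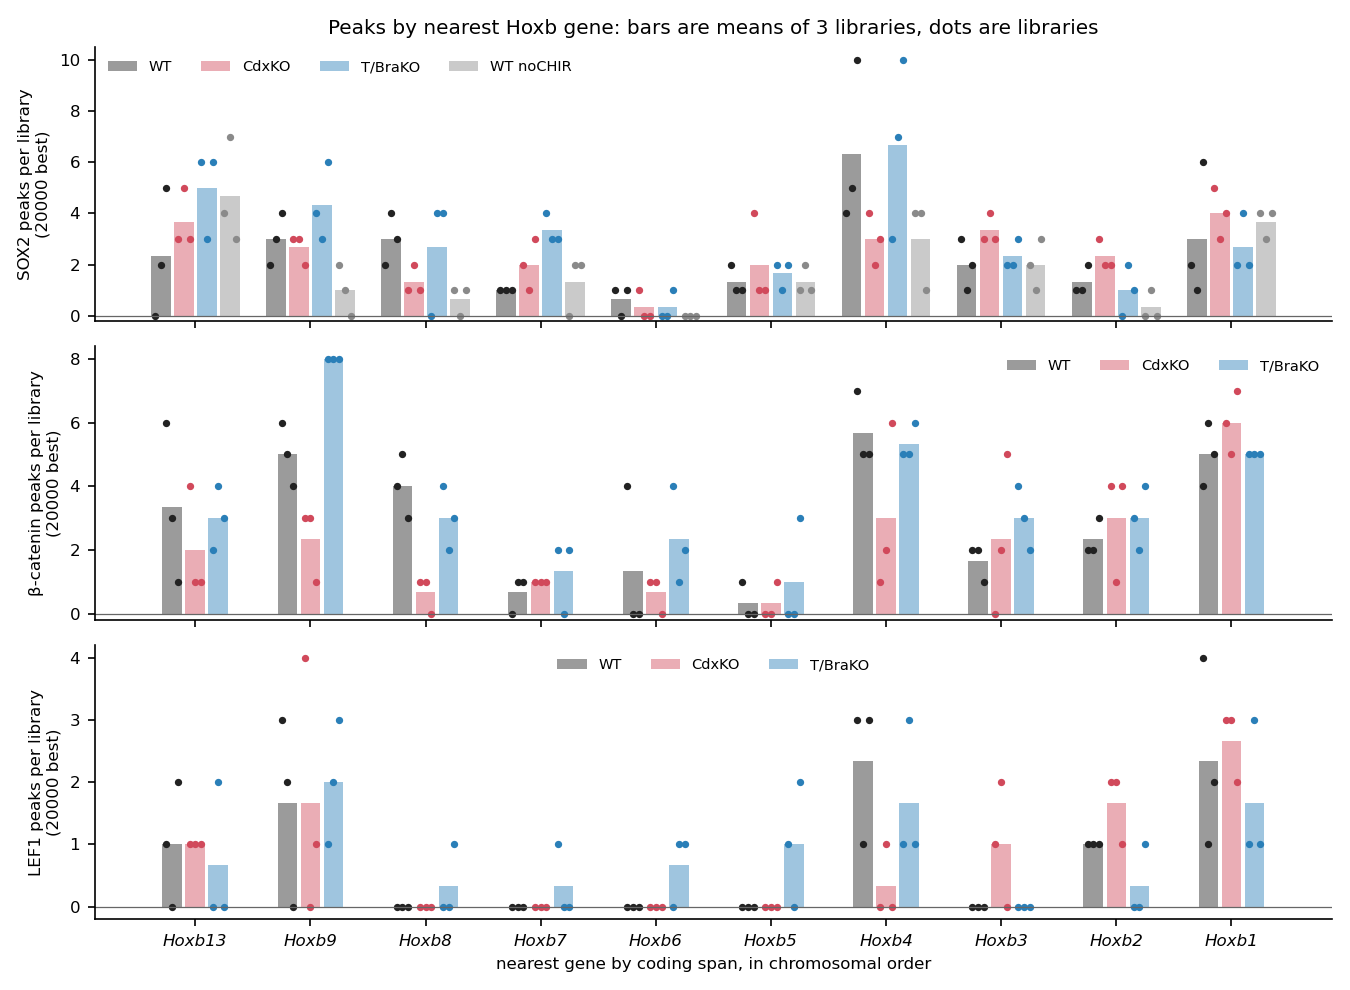
Number of peaks among the 20000 best of a library (vertical axis) assigned to each Hoxb gene (horizontal axis, chromosomal order) for SOX2, β-catenin and LEF1, with bars for group means, dots for the 3 libraries and colours for the groups. β-catenin at Hoxb8 falls from 4 in WT to 0.667 in CdxKO, and β-catenin at Hoxb1 is 5 in WT and 6 in CdxKO.

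A peak was assigned to the gene whose coding span was nearest to its summit. By this rule the 623 peaks fell to Hoxb13 (80), Hoxb9 (95), Hoxb8 (47), Hoxb7 (33), Hoxb6 (19), Hoxb5 (27), Hoxb4 (112), Hoxb3 (53), Hoxb2 (49) and Hoxb1 (108). By the nearest transcription start, 529 (84.9%) kept their gene, and Hoxb4 then had 87 and Hoxb3 79. Hoxb4 and Hoxb1 had the most peaks by coding span, and Hoxb1 (108) and Hoxb9 (88) by the nearest start. The number of Hoxb peaks as a whole did not separate the groups. It was 23 to 36 among the 20000 best of WT β-catenin libraries, 17 to 26 in CdxKO and 30 to 38 in T/BraKO. CdxKO lay below T/BraKO with no overlap, but the difference of -0.70 in log2(peaks + 1) did not pass the test over all windows (limma, adjusted p = 0.184), nor did any other comparison.

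SOX2 binding was compared between WT cells with and without CHIR. With CHIR, 5 of 46 Hoxb regions were higher, against 0.718% of all 30092 SOX2 regions, and 1 was lower, against 4.35%. The higher regions lay at the Hoxb1 promoter, in introns of Hoxb4, Hoxb9 and Hoxb8 and at and beyond the 3′ end of Hoxb8. The lower region lay downstream of Hoxb1. The median difference was 0 over the Hoxb regions and -0.117 over all regions.

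The Hoxb1 promoter region, chr11:96364789-96366325, held the best SOX2 peak of the cluster in WT CHIR, CdxKO and T/BraKO libraries. It was peak 37, 141 and 6 of the WT libraries with CHIR and 1420, 2192 and 3576 without. In CdxKO it was peak 60, 127 and 11 and in T/BraKO 174, 121 and 30. All 9 CHIR libraries ranked it within the first 174 peaks and all noCHIR libraries at 1420 or lower down. Fold enrichment was 43.8, 18.8 and 92.1 with CHIR and 20.6, 15.6 and 9.69 without, so that the lowest CHIR value overlapped the noCHIR range on this scale. The rank score was 9.31 ± 2.29 with CHIR and 3.16 ± 0.667 without (SD, n = 3), a difference of 6.15 (SE 0.997, limma, adjusted p = 0.000138). It passed under every alternative that was run.

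**Figure D4:**
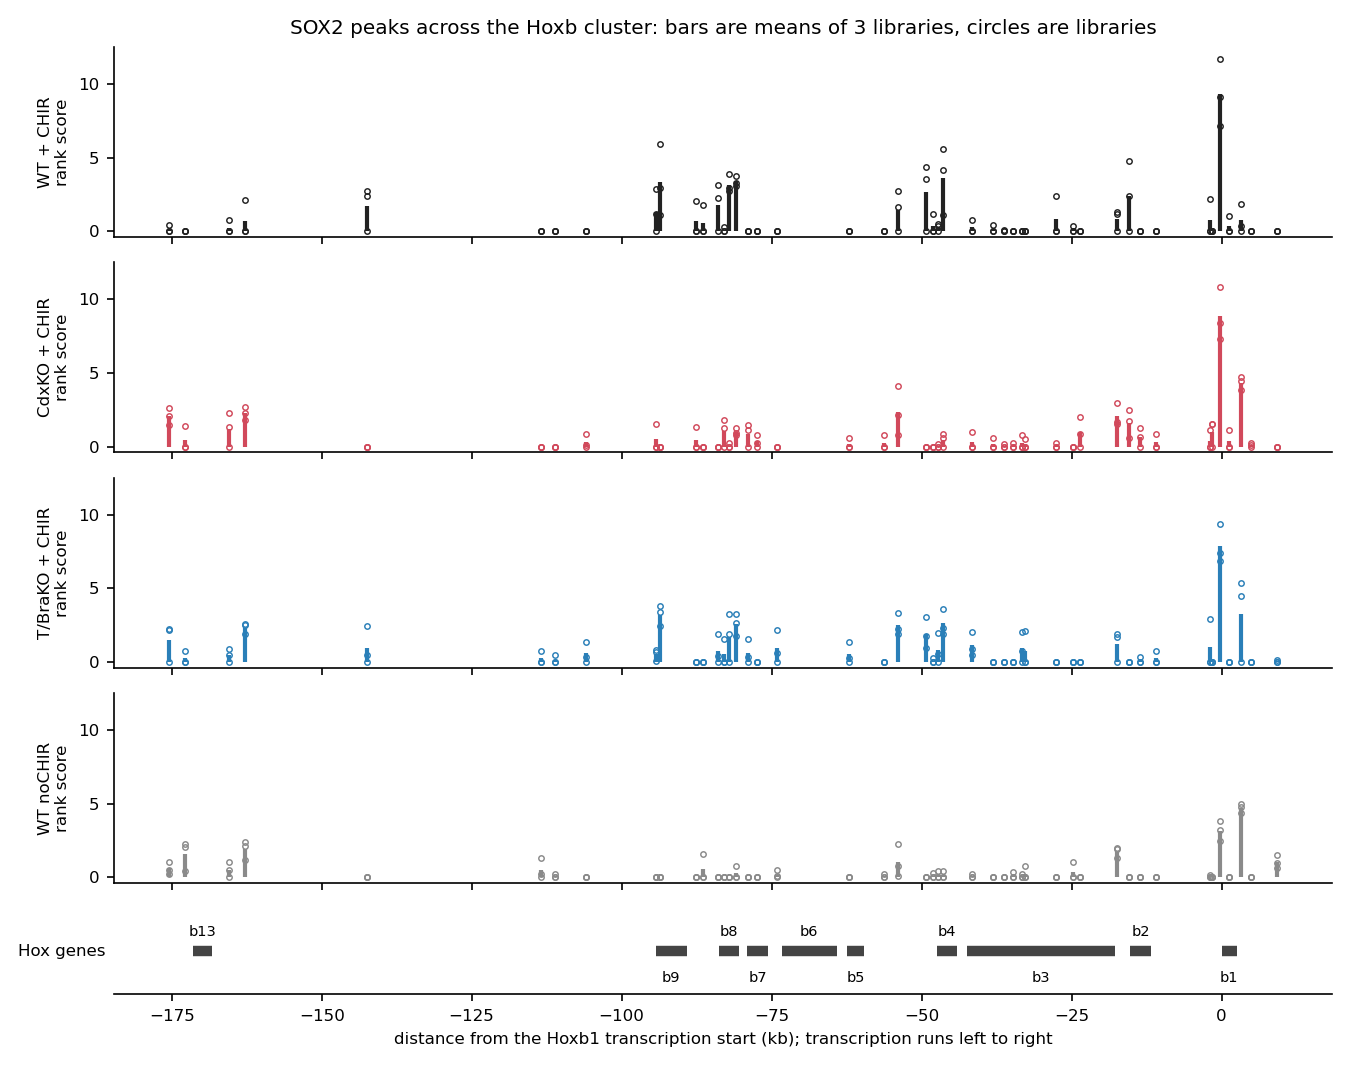
SOX2 rank score at each of the 46 Hoxb regions (vertical axis, 0 is outside the 20000 best peaks) against distance from the Hoxb1 transcription start in kb, in WT, CdxKO and T/BraKO cells with CHIR and WT cells without, with bars for means of 3 libraries and circles for libraries. The bar at the Hoxb1 promoter stands at 9.31 in WT with CHIR, 8.84 in CdxKO, 7.86 in T/BraKO and 3.16 without CHIR.

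The other regions that were higher with CHIR were weaker. The Hoxb8 intron region, chr11:96283348-96284170, was peak 1378, 3076 and 2616 with CHIR, and 69741 and 22179 without CHIR with no peak in the third library (difference 3.17, SE 0.840, limma, adjusted p = 0.0184). The Hoxb4 intron region, chr11:96319119-96320535, was peak 420, 9206 and 1123 with CHIR and 55959, 14880 and 48729 without (3.47, SE 0.963, adjusted p = 0.0251). Each CHIR library stood above each noCHIR library at both. The best summits of the Hoxb4 intron region spread over 1058 bp in 9 libraries. The Hoxb8 3′ region, chr11:96284734-96286169, was peak 1475, 2376 and 2036 with CHIR and 11699, 19653 and 19481 without (3.10, SE 0.874, adjusted p = 0.0284). Its best summits spread over 991 bp in 12 libraries, with a median at 96285647, beyond the Hoxb8 end at 96285315. The WT peak at 2376 was assigned to Hoxb7 by coding span. The libraries thus need not share 1 peak there, and the call was lost with regions built from summit windows. The Hoxb9 intron region, chr11:96271728-96272863, was peak 328, 9205 and 2600 with CHIR and 20437, 31818 and 122022 without (3.33, SE 0.958, adjusted p = 0.0321). The Hoxb9 value fell to 2.03 without WT CHIR replicate 1 (adjusted p = 0.231), and its call was lost in 6 of 12 fits with 1 library left out and in 4 of 7 other settings (adjusted p up to 0.279). The Hoxb4 call was lost in 5 of 12 and 3 of 7 (up to 0.222), the Hoxb8 intron call in 3 of 12 and 2 of 7 (up to 0.114) and the Hoxb8 3′ call in 2 of 12 and 3 of 7 (up to 0.391). Only the Hoxb1 promoter region passed when every region seen in a single library was tested, when fold enrichment replaced rank, or without noCHIR replicate 2.

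Downstream of Hoxb1 the order was turned round. The SOX2 region chr11:96368508-96369677, with its summit 3294 bp after the Hoxb1 start, was peak 978, 733 and 642 without CHIR, the best SOX2 peak of the cluster in those libraries. With CHIR it was peak 15333, 116064 and 5486 in WT, a difference of -3.95 (SE 1.05, limma, adjusted p = 0.0194). It did not pass without any 1 of the noCHIR libraries (adjusted p = 0.0555, 0.0708 and 0.0803 without replicates 1, 2 and 3), with no filter (0.271), without a trend (0.0694) or on fold enrichment (0.211). It was peak 747, 929 and 1404 in CdxKO and 490 and 907 in T/BraKO replicates 1 and 2, with none in replicate 3. WT CHIR was thus below all noCHIR and CdxKO libraries, although CdxKO minus WT did not pass the test. A further 2 SOX2 regions were in the 20000 best of 3 of 3 noCHIR and 0 of 3 WT CHIR libraries, 1339 bp before Hoxb13 at peak 4902, 15063 and 4201 and 9181 bp after the Hoxb1 start at 12750, 6875 and 10325. All noCHIR libraries exceeded all WT CHIR libraries at 4 of 46 Hoxb regions, against 14.4% of all SOX2 regions. The reverse held at 5 of 46, against 2.02%.

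Between genotypes no SOX2 region of the cluster passed the test. The count was 0 of 46 for CdxKO minus WT (0.0199% of all regions, 12 Hoxb regions at an unadjusted p under 0.05), 0 for T/BraKO minus WT (0% of all regions, 2 unadjusted) and 0 for CdxKO minus T/BraKO (0.0399%, 6 unadjusted). These percentages are for the adjusted threshold. The share of all regions at the unadjusted cutoff was not counted, so the unadjusted counts have no reference. All WT libraries exceeded all CdxKO libraries at 4 of 46, against 0.734% of all SOX2 regions. All CdxKO libraries exceeded all WT libraries at 3 of 46, against 5.38%, at Hoxb13, at Hoxb3 and downstream of Hoxb1. CdxKO lay below T/BraKO without overlap at 4 of 46, against 2.63%, and above at 1, against 3.08%. The 4 regions with WT above CdxKO were the Hoxb9 intron, Hoxb8 intron, Hoxb8 3′ and Hoxb4 intron regions. They are the regions named above as higher with CHIR, and the 2 comparisons share the WT CHIR libraries. In CdxKO the Hoxb9 intron region was peak 23187 and 22472 with none in replicate 3, and the Hoxb8 intron region had a peak in replicate 2 alone, at 17191. The Hoxb8 3′ region was peak 10791, 8308 and 11806 and the Hoxb4 intron region 24376, 13062 and 11305. By coding span the CdxKO peak at 8308 was assigned to Hoxb7. In T/BraKO the Hoxb9 intron region was peak 1407, 3730 and 1904, within the WT range. The CdxKO minus WT differences were -3.33, -3.09, -2.40 and -3.14 in the order given, and the adjusted p was 0.301 for the Hoxb9 region, with none of the 4 past the threshold. Without WT replicate 2 the Hoxb9 and Hoxb4 intron regions passed, and without a trend the Hoxb8 3′ region passed.

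At the Mir10a-upstream site SOX2 was found as peak 41864, 967 and 1687 in WT and 10469, 5802 and 2422 in T/BraKO with CHIR. In CdxKO only replicate 1 had a peak, at 95483, and without CHIR the peaks were at 56755 and 126693 with none in replicate 1. The 20000 best thus held it in 2 of 3 WT, 3 of 3 T/BraKO, 0 of 3 CdxKO and 0 of 3 noCHIR libraries, and the CdxKO minus WT difference of -2.65 did not pass (adjusted p = 0.453). At the start of Hoxb9 a region was in the 20000 best of 3 of 3 T/BraKO and 0 of 3 noCHIR libraries. Upstream of Hoxb2 SOX2 was peak 752, 125976 and 3815 in WT and 13259, 3582 and 5910 in CdxKO, and it was in the 20000 best of no T/BraKO and no noCHIR library. At Hoxb5 the highest region, 8298 bp after the start, was peak 102977, 3023 and 6287 in WT and 1171, 4526 and 11726 in CdxKO, and the groups overlapped. At Hoxb3 a region in an intron of Hoxb3os was peak 79091, 8882 and 8057 in WT and 6939, 6168 and 2548 in CdxKO, each CdxKO library above each WT library, with a difference of 1.24 (adjusted p = 0.658). The best WT region of Hoxb13 was peak 2964 and 3779 in replicates 2 and 3 and 552694 in replicate 1. None of the 3 tested SOX2 regions of Hoxb7 was in the 20000 best of a WT library with CHIR. Each of these libraries nevertheless had 1 such peak assigned to Hoxb7, at 10329, 2376 and 12118. The peak at 2376 lay in the Hoxb8 3′ region. By coding span Hoxb6 had no tested SOX2 region. A SOX2 region assigned to Hoxb7, chr11:96291436-96292149, had its summit 766 bp before the Hoxb6 start. It was in the 20000 best of 2 of 3 T/BraKO and 2 of 3 noCHIR libraries, and of no WT CHIR or CdxKO library.

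LEF1 had the fewest regions. It had a region at 13 sites, of which 12 also held a β-catenin region, and 35 sites held a β-catenin region. None of its 13 Hoxb regions passed the test for CdxKO minus WT (0% of all 8022 LEF1 regions), T/BraKO minus WT (0.0125%) or CdxKO minus T/BraKO (0.0499%), with 2 Hoxb regions at an unadjusted p under 0.05 in each. The share of all LEF1 regions at that unadjusted cutoff was not counted. At the Mir10a-upstream site it was peak 141, 37916 and 137 in WT and 434, 139 and 238 in T/BraKO. In CdxKO it was peak 77586, 82537 and 62533, so that it was in the 20000 best of no CdxKO library and of 3 of 3 T/BraKO libraries. WT replicate 2 lay between the groups. The difference of CdxKO from WT was -4.78 (SE 2.05, limma, adjusted p = 0.756), and that from T/BraKO -6.36 (SE 2.05, adjusted p = 0.580). The standard error of β-catenin at this site was 0.618 on the same log2 scale. For LEF1 as for β-catenin, limma took the spread from all regions of like mean score. The 2 standard errors therefore do not compare the replicates at this site.

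In the Hoxb4 intron LEF1 was peak 318, 645 and 4101 in WT. In CdxKO it was peak 74997 and 682552 with none in replicate 3, the 1 of 13 Hoxb regions at which all WT libraries exceeded all CdxKO libraries, against 1.16% of all LEF1 regions. T/BraKO was divided, with peak 341 in replicate 2, 395174 in replicate 1 and none in replicate 3. At the Hoxb1 promoter LEF1 was peak 71, 423 and 23 in WT and 42, 31 and 41 in CdxKO, among the best 423 of all 6. T/BraKO replicate 2 had it at peak 28 and replicates 1 and 3 at 25339 and 24777, and CdxKO minus T/BraKO was 5.89 (SE 1.61, adjusted p = 0.189). Upstream of Hoxb2 LEF1 was in the 20000 best of 3 of 3 WT and 3 of 3 CdxKO libraries, at peak 1089, 8737 and 19626 and peak 9771, 1047 and 1145, and of 0 of 3 T/BraKO libraries. No LEF1 region was tested at Hoxb8, Hoxb7, Hoxb6 or Hoxb5, and none of the 20000 best LEF1 peaks of a WT or CdxKO library was assigned to these 4 genes.

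**Figure D5:**
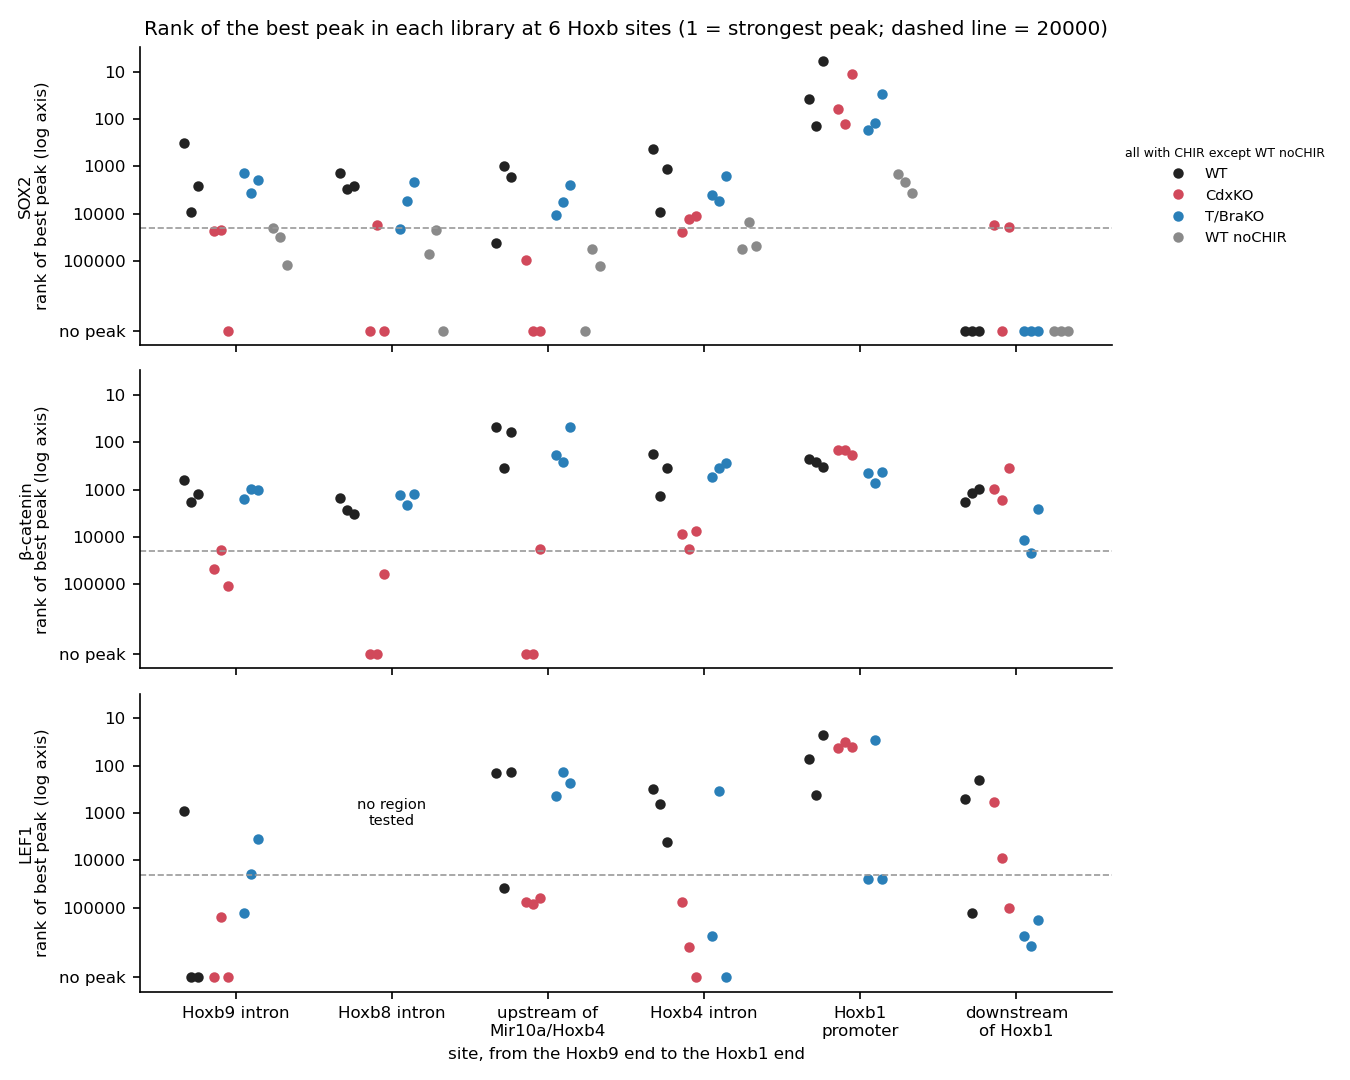
Rank of the best peak (vertical log axis, 1 at the top, lowest row for no peak, dashed line at 20000) in each library for SOX2, β-catenin and LEF1 at 6 Hoxb sites (horizontal axis), with 1 point per library and a colour per group. CdxKO points fall to rank 7557 or lower down for β-catenin at the Hoxb9, Hoxb8, Mir10a-upstream and Hoxb4 sites, and at the Hoxb1 promoter they lie at 144 to 182.

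Words around the summits were counted over all regions as a description. A CDX word stood within 100 bases of the summit in 10 of 36 Hoxb β-catenin regions (27.8%) and in 12.7% of all β-catenin regions. Of the 142 β-catenin regions that were lower in CdxKO than in WT anywhere in the genome, 98 (69.0%) held a CDX word and 76 (53.5%) a TCF/LEF word, and the 4 Hoxb regions held both. TCF/LEF words were present in 12 of 36 Hoxb β-catenin regions, beside 36.8% of all, and in 9 of 13 Hoxb LEF1 regions, beside 46.9%. A SOX word stood in 9 of 46 Hoxb SOX2 regions (19.6%), beside 28.4% of all. The SOX-OCT word of the Hoxb1 promoter site stood in 98 of all 30092 SOX2 regions (0.326%) and in 1 Hoxb region, and the HOX-PBX word in 6.12% of all and in 2 Hoxb regions. Of the 216 SOX2 regions higher with CHIR, 56 (25.9%) held a CDX word, as did 3 of the 5 in the cluster. Among all SOX2 regions the share was 10.9%. The T-box word stood in 13 (2.43%) of the 536 β-catenin regions lower in T/BraKO than in WT and in 1.74% of all, and it was not in the window of the Hoxb1 downstream region.

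Genes linked to Hoxb by family or function were read from the same fit, a gene being counted where a region within 10 kb passed the test. For β-catenin in CdxKO against WT, 7 of the 10 Hoxb genes had a lower region within this distance, against 1.08% of the 8900 protein-coding genes with a β-catenin region so near. Neighbouring Hox genes share regions, so that these counts hold fewer regions than genes. Of the 29 other Hox genes, 4 did, Hoxa3, Hoxa4, Hoxa5 and Hoxa6, with differences of -5.65 at Hoxa3 and Hoxa4 (SE 0.663, limma, adjusted p = 4.76e-14) and -3.61 at Hoxa5 and Hoxa6 (SE 0.785, adjusted p = 0.00161). Of 7 genes of the Hox cofactors PBX and MEIS, Meis3 did (-6.12, adjusted p = 1.23e-17). Of the 4 genes deleted in the 2 lines, Cdx1 did (-4.06, adjusted p = 1.86e-10), and peak lists do not show the deletions themselves. For T/BraKO against WT 1 of the 10 Hoxb genes had a lower region, against 3.17% of all such genes, no other Hox gene did, and Pbx3 was the only cofactor (-2.88). For SOX2 with CHIR, 7 of the 10 Hoxb genes had a higher region, against 1.41% of 11618 genes, and 1 a lower region, against 6.51%. Among other Hox genes, a higher region lay near Hoxa3 and Hoxa4 (4.01, SE 0.890, adjusted p = 0.00442). A lower region lay near Hoxc12 and Hoxc13 (-2.31), and Meis1 was the cofactor with a lower region (-3.57). No gene of these lists had a LEF1 region that passed.

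The β-catenin regions most like the Mir10a-upstream region over the 9 libraries, by Pearson's r of rank scores, lay in Svopl on chromosome 6 (r = 0.997), 18596 bp from Tcp11 on chromosome 17 (r = 0.995) and 7982 bp from Polr2m on chromosome 9 (r = 0.994). All 3 had a rank score of 0 in every CdxKO library. Their scores in WT were lower than the 7.64 of the Hoxb region, reaching 3.94, 6.04 and 3.10. With 9 points in 3 groups from shared libraries, r describes this pattern and no more.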

How the data were processed

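The authors aligned single-end reads to mm10 with BWA in the nf-core chipseq pipeline and called narrow peaks with MACS2 for each library at q under 0.05. The deposited lists hold no read counts, so read depth is unknown, and which control library was used is not given in the sources used here. Per the labels the deposited columns are, as defined for the narrowPeak format, fold enrichment (a ratio over the local background), -log10 p, -log10 q, a whole-number score and the summit position. The 12 input libraries were not analysed here. The study's count model needs reads, so ranks were used instead.

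The 10 members and the gene lists were chosen with earlier results of these data known. Peaks were ranked within each list by -log10 q, then -log10 p, fold enrichment and position. The 20000 best peaks of a factor's libraries were merged where they overlapped, and regions found in at least 2 libraries were tested. Scores were compared in R 4.3.3 with limma 3.58.1 (lmFit and eBayes, trend and robust, all groups of a factor in 1 fit), with Benjamini-Hochberg adjustment over all regions of the factor and a threshold of 0.05. A window's score was log2(peaks + 1), tested where the mean was at least 1 peak. The procedure was also run on simulated scores with normal spread and known shifts, placed only in regions of higher mean score. That run does not cover shifts in weaker regions. Peak positions, names and annotation came from the files, GENCODE M21 and GRCm38, read with Python 3.11.15 and pandas 2.3.3. Regions are named where they passed a test, where they had the highest mean WT score for a gene and factor, or where they were in the 20000 best of 3 of 3 libraries of a group and 0 of 3 of another. Other values are named as examples chosen after they were seen. A result for some of the other Hox genes is not reported here. The labels call the libraries biological replicates.

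Alternatives were no filter on regions, the 10000 best peaks, a -log10 q of at least 5, log2 fold enrichment over full lists, regions built from summit windows, a replicate block and leaving out each library. A fit with no trend and not robust was added after seeing the data.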

Additional observations from a re-analysis of the deposited data

Results flagged for a closer look

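The effect of the genotype on β-catenin differed between the CdxKO and T/BraKO lines at 5 Hoxb regions, by the direct limma test of CdxKO minus T/BraKO. The difference in rank score was -7.21 upstream of Mir10a, -4.83 in the Hoxb4 intron, -4.10 in the Hoxb9 intron, -3.72 in the Hoxb8 intron and 3.35 downstream of Hoxb1. At the first 4 CdxKO was the low group, and downstream of Hoxb1 T/BraKO was.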

How the results depend on the processing

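β-catenin stayed lower in CdxKO than in WT upstream of Mir10a and in the Hoxb4 and Hoxb9 introns under every alternative run, leave-one-out included. In the leave-one-out fits alone these differences were -8.49 to -7.07, -5.42 to -3.96 and -4.48 to -3.72. Without a library in turn, the count of Hoxb regions past the test ran from 1 to 7 for SOX2 CHIR minus noCHIR, from 0 to 2 for SOX2 CdxKO minus WT, from 3 to 4, 0 to 1 and 5 to 6 for β-catenin CdxKO minus WT, T/BraKO minus WT and CdxKO minus T/BraKO, and from 0 to 1 for LEF1 CdxKO minus T/BraKO, where the Hoxb1 promoter region passed without WT replicate 2 or T/BraKO replicate 2. For SOX2 with CHIR the count of 6 fell to 2 without noCHIR replicate 1 and to 1 without noCHIR replicate 2, with no filter and with fold enrichment over full lists. SOX2 CdxKO minus WT had 1 region with no trend. The β-catenin T/BraKO minus WT count was 0 with no filter, with no trend and with fold enrichment. Of the window differences in log2(peaks + 1), none past the test, several changed sign. With full lists these were SOX2 CHIR (-1.14), β-catenin CdxKO minus WT (0.151), LEF1 CdxKO minus WT (-0.168) and LEF1 T/BraKO minus WT (-0.148). With the 10000 best peaks they were SOX2 CdxKO minus WT (-0.130), β-catenin T/BraKO minus WT (-0.00191), LEF1 T/BraKO minus WT (-0.353) and LEF1 CdxKO minus T/BraKO (0.384). With no filter the β-catenin window CdxKO minus T/BraKO (-0.701) passed (limma, adjusted p = 0.0225). Left-out libraries gave windows of -0.0741 to 0.387 for SOX2 CdxKO minus WT, -0.271 to 0.302, -0.225 to 0.370 and -0.358 to 0.244 for LEF1 CdxKO minus WT, T/BraKO minus WT and CdxKO minus T/BraKO. The cause was not tested. Not every same-numbered pair deviated together (r of -0.0646 to 0.0613 for LEF1, -0.0250 to 0.159 for SOX2 and -0.0994 to 0.244 for β-catenin), so the numbers were not taken as pairs. The mean r of same-numbered pairs was nevertheless above that of the others for SOX2 (0.0467 and -0.0233) and β-catenin (0.0647 and -0.0324). All pairs of replicate 3 were also positive, for β-catenin (0.102 to 0.244), SOX2 (0.0361 to 0.159) and LEF1 (0.0250 to 0.0470). A replicate block gave 7 regions for SOX2 CHIR, 4 for β-catenin CdxKO minus WT and 6 for CdxKO minus T/BraKO, and changed no count by over 1.5 times. Without read counts, a peak missing from a list cannot be told apart from weak binding.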
